A study of Mus musculus with 6 samples.

Results

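Radial glia are the neural stem cells that line the ventricles of the embryonic brain. They span the wall of the neural tube, divide at its inner surface and give rise to neurons first and to glia later. They are recognised by a set of structural, transport and surface proteins, and by transcription factors that keep them dividing. The genes described here are 10 such markers. Nes and Vim encode the intermediate filaments of the radial fibre. Fabp7 and Slc1a3 serve lipid binding and glutamate uptake, Prom1, Ednrb, Ttyh1 and Ptprz1 encode membrane proteins, and Pax6 and Nr2e1 encode transcription factors. They were taken by symbol and mapped to the Ensembl gene IDs of the count table with GENCODE M21. Each symbol matched 1 gene ID, which gave 10 of the 49315 genes in the table.

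The counts came from the medial ganglionic eminence (MGE), a ventral progenitor zone that supplies interneurons to the cortex, of mouse embryos at embryonic day 14. The KO pools carried Nkx2.1-Cre, Prdm16 fl/fl and Ai14, and the WT pools carried Nkx2.1-Cre, Prdm16 +/+ and Ai14, so that the Cre driver and the Ai14 reporter were common to both groups. There were 3 KO and 3 WT libraries, each from 1 pool of 3 embryos (6 eminences). Nkx2.1-Cre acts in MGE progenitors, while the RNA came from whole dissected tissue, so cells outside that lineage contributed to it. Prdm16 encodes a zinc finger transcription factor of radial glia, and the comparison asks which transcripts differ when it is deleted in this lineage.

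Total counts ran from 36517047 to 55552298 in the KO libraries and from 33188277 to 46301483 in the WT libraries. Prdm16 itself had 53.6, 51.3 and 45.8 CPM (counts divided by the TMM-scaled library size) in KO 1 to 3, against 55.75, 47.0 and 45.45 CPM in WT 1 to 3. The ranges overlapped, with a log2 fold change of 0.02 (SE 0.09) and an edgeR adjusted p = 0.884. The table does not separate exons, and the labels do not say which ones Cre removes. This therefore does not check the KO label, and each direction below rests on the labels alone. On the first principal component, which held 55.9% of the variance, KO 2 and KO 3 were at 35.4 and 37.2 and KO 1 was at 15.9. The WT libraries ran from -31.0 to -28.3. KO 1 also stood apart from KO 2 and KO 3 on the second component, which held 16.1%. Its pool had 1.92 CPM of Xist and 239 CPM of Y-linked transcripts, against 1424 CPM of Xist and 0.36 CPM of Y-linked transcripts in KO 3. Nkx2-1, the defining transcription factor gene of the MGE, was present in every library, at 637, 811 and 861 CPM in KO 1 to 3, against 651, 674 and 615 CPM in WT 1 to 3 (edgeR adjusted p = 0.112). This gene does not stand for MGE markers in general, since 64.3% of a list of 14 were called, as given below.

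The stretches just before the starts of 3 members are shown because these genes bracket the response: Fabp7 had the largest rise, Nes is the defining filament gene, and Slc1a3 was the member that fell. They are from RefSeq (GRCm38.p6), in the direction of the gene, and end before both the RefSeq and the GENCODE start. The stretch of Nes lies at chr3:87970843-87971077 on the plus strand, Fabp7 at chr10:57784673-57784880 on the plus strand and Slc1a3 at chr15:8710808-8711057 on the minus strand. Capitals mark matches to the RBPJ motif TGGGAA, the Hes N box CACNAG, the SOX motif ACAANG, the NFI motif TTGGCA or the POU octamer ATGCNAAT, on either strand.
Nes: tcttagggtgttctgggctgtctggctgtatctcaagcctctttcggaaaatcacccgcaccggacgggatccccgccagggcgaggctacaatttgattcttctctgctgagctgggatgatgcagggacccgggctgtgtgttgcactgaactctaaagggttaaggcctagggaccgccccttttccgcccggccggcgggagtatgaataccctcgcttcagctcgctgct
Fabp7: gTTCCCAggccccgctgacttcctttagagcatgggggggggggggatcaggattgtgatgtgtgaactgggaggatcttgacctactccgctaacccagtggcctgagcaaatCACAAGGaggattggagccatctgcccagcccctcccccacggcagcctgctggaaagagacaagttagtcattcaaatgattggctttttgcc
Slc1a3: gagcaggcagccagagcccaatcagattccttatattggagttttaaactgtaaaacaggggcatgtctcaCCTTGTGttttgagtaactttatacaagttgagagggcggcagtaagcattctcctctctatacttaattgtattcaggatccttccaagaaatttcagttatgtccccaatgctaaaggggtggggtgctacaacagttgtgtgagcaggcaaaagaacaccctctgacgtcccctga
The Nes stretch held no match to these 5 motifs. The Fabp7 stretch held an RBPJ match on the reverse strand and an N box that overlaps a SOX match. The Slc1a3 stretch also held an N box overlapping a SOX match, both on the reverse strand. GC content was 58.7% before Nes, 56.2% before Fabp7 and 44.8% before Slc1a3.

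All 10 members had a RefSeq window of 250 bases before to 50 bases after the start, and Prom1 and Pax6 had more than 1 such window, so that there were 12 windows. The N box was found in 8 of the 12 windows, of 7 members (Fabp7, Pax6, Prom1, Ptprz1, Slc1a3, Ttyh1 and Vim), and in 42.5% of all 32851 RefSeq windows. The SOX motif was found in 7 of the 12 windows, of 7 members, and in 41.2% of all windows. The RBPJ motif was in 3 of the 12 windows (Fabp7, Nr2e1 and Prom1) and in 25.6% of all. The POU octamer was found in 1 of the 12 windows, that of Nr2e1, and in 3.15% of all windows. The NFI motif was in 0 of the 12 windows and in 14.1% of all, and the E box CANNTG in 6 of the 12 and in 72.3%. These are matches of letters in a window and were not tested as binding sites.

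All 10 members passed the filter on low counts, with 346 counts (Pax6 in WT 2) to 60606 counts (Vim in KO 3) per library. At 346 counts the counting error is 5.38%. In the KO pools 7 members were higher (Nes, Vim, Fabp7, Ednrb, Ttyh1, Pax6 and Nr2e1), 1 was lower (Slc1a3) and 2 did not pass (Prom1 and Ptprz1), at an edgeR adjusted p under 0.05 over all 18079 genes tested. Of all tested genes 9.72% were called higher and 10.5% lower, 20.2% in all. These shares also stand beside the counts of called genes in every list below. The median log2 fold change was 0.50 over the 10 members and -0.0024 over all tested genes. In 7 members every KO library was above every WT library, and in 1 member every KO library was below. Among all tested genes 20.3% had the KO libraries all above and 19.6% all below, so that 39.9% did not overlap. In whole tissue, more cells of a type and more RNA per cell cannot be told apart.

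**Figure D1:**
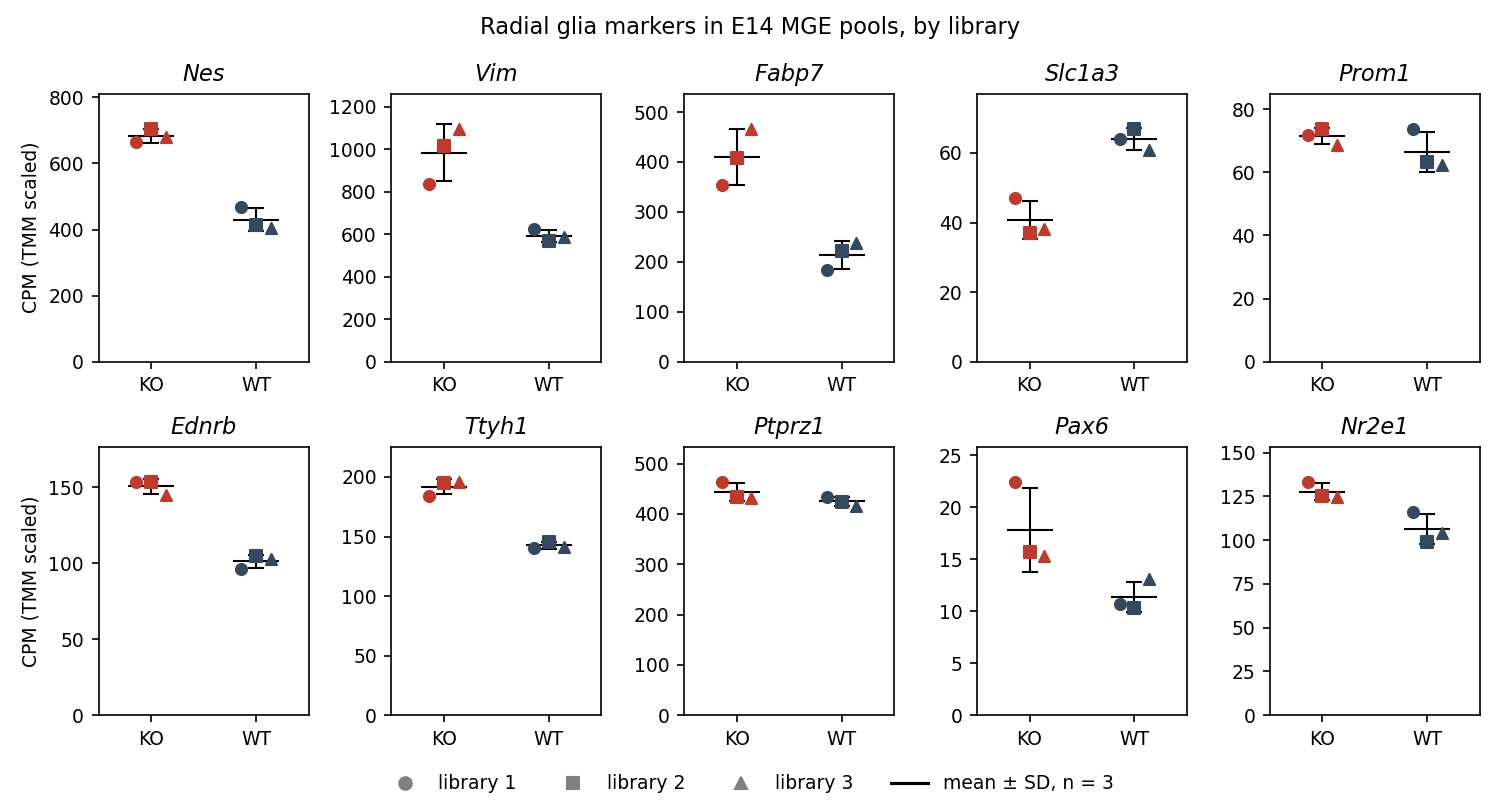
CPM of each marker (vertical axes, from 0) in the KO and WT libraries; points are libraries, and the bar with whiskers is the mean ± SD (n = 3). The KO points lie above the WT points for 7 members and below them for Slc1a3, while those of Prom1 and Ptprz1 overlap.

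The filament genes rose together. Nes (ENSMUSG00000004891, GRCm38 chromosome 3, 87971078 to 87980451), which encodes nestin, had 666, 706 and 679 CPM in KO 1 to 3, against 469.8, 415 and 406 CPM in WT 1 to 3. Every KO library was above every WT library, and the KO libraries were closer together than the WT libraries (coefficient of variation 2.96% in KO and 8.08% in WT). The mean was 684 ± 20.3 CPM in KO and 430 ± 34.75 CPM in WT (SD, n = 3 each), a 1.59-fold rise with a 95% interval of 1.42 to 1.77 (edgeR adjusted p = 0.00047). Vim (ENSMUSG00000026728, chromosome 2, 13573927 to 13582826) encodes vimentin, the filament protein with which nestin assembles. It had 836, 1015 and 1098 CPM in KO 1 to 3, against 624.5, 567.5 and 586 CPM in WT 1 to 3. The groups did not overlap, and KO 1 was the KO library nearest to the WT range. The fold was 1.66 (95% interval 1.43 to 1.93, edgeR adjusted p = 0.001535). Per length, Vim was at 1.70, 1.95 and 2.19 times the level of Nes in KO 1 to 3 and at 1.80, 1.85 and 1.95 times in WT 1 to 3, so this ratio overlapped between the groups.

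Of the other 14 intermediate filament, lamin and linker genes on the list, 12 were tested, 1 was higher (Ina) and 11 did not pass, with a median log2 fold change of 0.03. Ina, which encodes the neuronal filament protein internexin, averaged 599 ± 43.7 CPM in KO and 474 ± 52.0 CPM in WT (SD, n = 3 each, edgeR adjusted p = 0.0293). Nefm, a neurofilament gene, and Dst, a cytoskeletal linker gene, did not pass (log2 fold changes of 0.23 and -0.28, edgeR adjusted p = 0.07085 and 0.07775). Gfap, the filament gene of mature astrocytes, averaged 0.0591 CPM in KO and 0.0615 CPM in WT and did not reach the filter.

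Fabp7 and Slc1a3, both long used as radial glia markers, moved in opposite directions. Fabp7 (ENSMUSG00000019874, chromosome 10, 57784881 to 57788450) encodes a brain fatty acid binding protein. It had 355, 408 and 467 CPM in KO 1 to 3, against 184, 221 and 238 CPM in WT 1 to 3. The groups did not overlap, although the libraries of each group spread by over 10% (coefficient of variation 13.7% in KO and 12.9% in WT). The mean was 409.9 ± 56.2 CPM in KO and 214 ± 27.7 CPM in WT (SD, n = 3 each), a 1.91-fold rise with a 95% interval of 1.597 to 2.294 (edgeR adjusted p = 0.00122). Of all tested genes 4.525% had a larger fold change in either direction. Fabp7 has the shortest exonic sequence of the members, 1250 bases. With each library's trend on exonic length removed, its log2 fold change was 0.81 (edgeR adjusted p = 0.000473), against 0.94 without that correction. Its paralogs Fabp5 and Fabp3 did not pass (log2 fold changes of 0.24 and -0.09, edgeR adjusted p = 0.06 and 0.696), while Fabp4 and Fabp12 did not reach the filter.

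Slc1a3 (ENSMUSG00000005360, chromosome 15, 8634124 to 8710764) encodes the glutamate and aspartate transporter GLAST, which radial glia carry and astrocytes keep. It had 47.0, 36.9 and 38.2 CPM in KO 1 to 3, against 64.0, 67.0 and 60.8 CPM in WT 1 to 3. Every KO library was below every WT library, with KO 1 nearest to the WT range. The mean was 40.7 ± 5.51 CPM in KO and 63.9 ± 3.08 CPM in WT (SD, n = 3 each), which was 1.57-fold lower (log2 fold change -0.65, SE 0.09, edgeR adjusted p = 0.002015). Leaving out 1 library at a time, the log2 fold change lay between -0.76 without KO 1 (edgeR adjusted p = 7.78e-07) and -0.59 without KO 2 (edgeR adjusted p = 0.00999), and the highest edgeR adjusted p was 0.0124, without WT 2. With the length trend removed it was -0.55 (edgeR adjusted p = 0.000783). Relative to Nes within a library, and per length, Slc1a3 stood at 0.0531, 0.0393 and 0.0423 in KO 1 to 3, against 0.102, 0.121 and 0.113 in WT 1 to 3. Of 9 tested genes of glutamate and neutral amino acid handling, among them the glutamine synthetase gene Glul, 3 were lower, 1 was higher and 5 did not pass. The amino acid transporter genes Slc38a3, Slc1a4 and Slc1a1 were 1.68-fold, 1.33-fold and 1.69-fold lower (edgeR adjusted p = 0.00029, 0.00352 and 0.0142). Slc1a2, the other main glial glutamate transporter gene, averaged 69.6 ± 6.47 CPM in KO and 59.1 ± 8.503 CPM in WT and did not pass (SD, n = 3 each, edgeR adjusted p = 0.134).

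**Figure D2:**
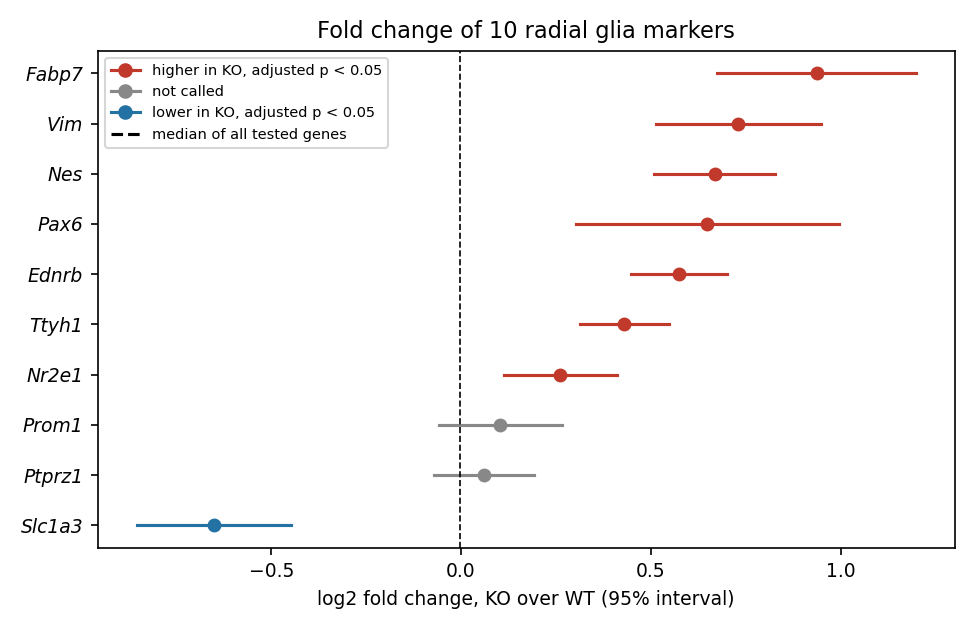
Log2 fold change, KO over WT, of each marker with its 95% interval (horizontal axis); colour gives the edgeR call, and the dashed line is the median of all tested genes. Intervals of 7 members lie above 0, that of Slc1a3 lies below it, and those of Prom1 and Ptprz1 span it.

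The 4 membrane proteins fell into a pair that rose and a pair that did not pass. Ednrb (ENSMUSG00000022122, chromosome 14, 103814625 to 103844402), a G protein-coupled receptor for endothelins, had 153.3, 153.5 and 144.6 CPM in KO 1 to 3, against 96.1, 104 and 103 CPM in WT 1 to 3. The groups were clearly apart, and the fold was 1.49 (95% interval 1.365 to 1.62, edgeR adjusted p = 0.000332, the smallest of the 10 members). Ttyh1 (ENSMUSG00000030428, chromosome 7, 4119408 to 4136708) encodes a tweety family membrane protein of neural stem cells. It had 184, 195 and 196 CPM in KO 1 to 3, against 140.4, 145.5 and 141.5 CPM in WT 1 to 3. Both groups were tight and did not overlap, with a fold of 1.35 (95% interval 1.24 to 1.46, edgeR adjusted p = 0.000984). In GENCODE M21 Ttyh1 shares 244 and 180 exonic bases with 2 antisense genes, whose reads cannot be told apart from its own without the strand setting.

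Prom1 (ENSMUSG00000029086, chromosome 5, 43993620 to 44102032) encodes prominin, the CD133 protein of apical membrane protrusions. It had 71.7, 73.8 and 68.7 CPM in KO 1 to 3, against 73.6, 63.1 and 62.45 CPM in WT 1 to 3. The ranges overlapped through WT 1, with a log2 fold change of 0.10 (SE 0.07) at an edgeR adjusted p = 0.325 and a 95% interval of the fold of 0.961 to 1.20. An antisense gene covers 5.91% of its exonic bases. Ptprz1 (ENSMUSG00000068748, chromosome 6, 22875502 to 23052916), a receptor-type tyrosine phosphatase, had 464, 433 and 432 CPM in KO 1 to 3, against 434.6, 424.5 and 415.4 CPM in WT 1 to 3. The ranges overlapped, and the 95% interval of the fold was 0.952 to 1.14 (log2 fold change 0.06, edgeR adjusted p = 0.486). Ptprz1 has the longest exonic sequence of the members, 14245 bases, and long genes were lower in KO as a whole. The median log2 fold change was 0.13 over the 4007 tested genes of up to 2000 exonic bases and -0.14 over the 2706 genes of over 8000 bases. With each library's trend on exonic length removed, Ptprz1 had a log2 fold change of 0.24 and passed (edgeR adjusted p = 0.0129).

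Genes that work with these membrane proteins were read from 3 lists. In the endothelin pathway 3 of 5 tested genes were lower and 1 was higher. Ece1, which encodes an endothelin converting enzyme, and Ednra, the other endothelin receptor gene, were 1.33-fold and 1.32-fold lower (edgeR adjusted p = 0.01605 and 0.036). Ecel1, of the same protease family, was 1.28-fold higher (edgeR adjusted p = 0.0172). The ligand genes were low, as Edn1 averaged 0.722 CPM in KO and 0.972 CPM in WT, and Edn2 and Edn3 did not reach the filter. Of the relatives Ttyh2, Ttyh3 and Prom2, Ttyh2 was 1.42-fold lower (edgeR adjusted p = 0.00678), Ttyh3 did not pass (log2 fold change -0.15, edgeR adjusted p = 0.135) and Prom2 did not reach the filter. Among 13 ligands and partners of Ptprz1, 7 were lower and 6 did not pass, with a median log2 fold change of -0.38. Alk, a receptor tyrosine kinase gene, was 3.13-fold lower, Bcan, which encodes the matrix proteoglycan brevican, 1.71-fold lower and Tnr, the tenascin R gene, 1.40-fold lower (edgeR adjusted p = 0.000462, 0.00515 and 0.0114).

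The transcription factor genes had the least firm rises. Pax6 (ENSMUSG00000027168, chromosome 2, 105668900 to 105697364), a homeobox gene that is high in progenitors of the cortex and low in those of the MGE, had 22.45, 15.7 and 15.3 CPM in KO 1 to 3, against 10.7, 10.3 and 13.1 CPM in WT 1 to 3. The groups did not overlap, but KO 1 was far above the other KO libraries. The fold was 1.57 (95% interval 1.23 to 1.99, edgeR adjusted p = 0.0203). Without KO 1 the log2 fold change was 0.45 (edgeR adjusted p = 0.00328), and the call was lost without WT 1 (0.61, edgeR adjusted p = 0.0667) or WT 2 (0.59, edgeR adjusted p = 0.0828). Nr2e1 (ENSMUSG00000019803, chromosome 10, 42561963 to 42583632), the orphan nuclear receptor TLX of neural stem cells, had 133.3, 125.2 and 124.5 CPM in KO 1 to 3, against 116, 99.1 and 104 CPM in WT 1 to 3. Every KO library was above every WT library, although KO 3 and WT 1 were close. Its log2 fold change was 0.26 with an SE of 0.07 (edgeR adjusted p = 0.0255). It lost its call without KO 2 (0.28, edgeR adjusted p = 0.0708), WT 2 (0.21, edgeR adjusted p = 0.118) or WT 3 (0.25, edgeR adjusted p = 0.1).

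Of 18 tested partner and target genes of Pax6 and Nr2e1, 4 were higher and 2 were lower. Ccnd1, the cyclin D1 gene, was 2.06-fold higher and the microRNA host gene Mir9-3hg 1.41-fold higher, while Meis2, a homeobox gene, was 1.42-fold lower (edgeR adjusted p = 6.46e-05, 0.000772 and 0.011). Pax6os1, an antisense RNA gene at the Pax6 start, averaged 0.0423 CPM in KO and 0.0244 CPM in WT and did not reach the filter.

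**Figure D3:**
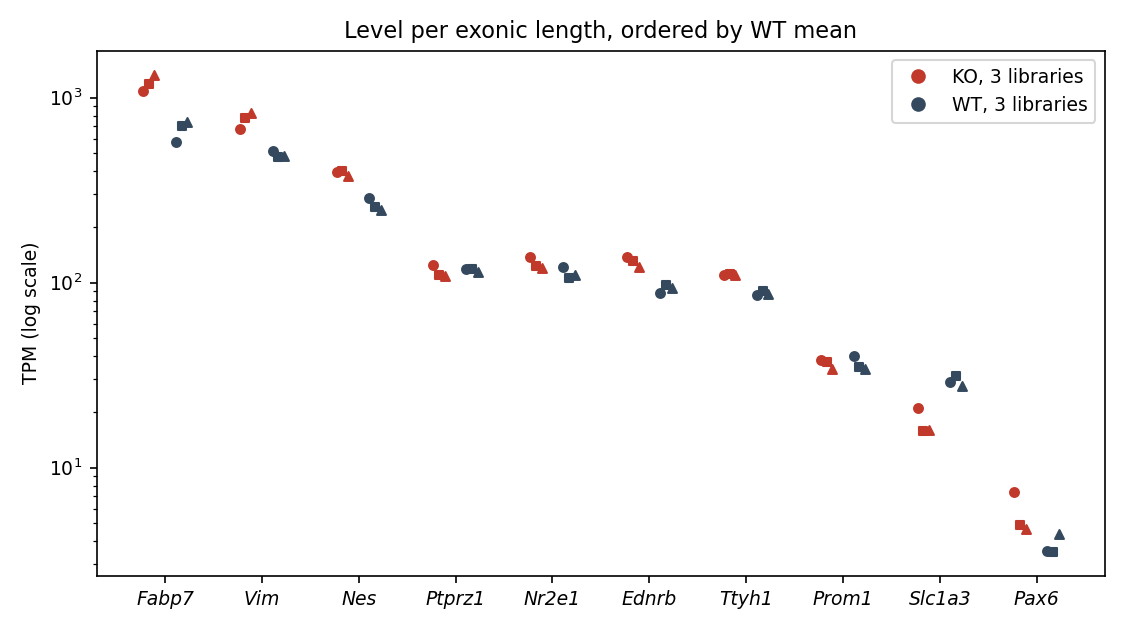
TPM (log axis) of each marker in the KO and WT libraries, with members ordered by their WT mean. Fabp7, Vim and Nes stand highest in both groups, Pax6 stands lowest, and Ednrb changes place between the groups.

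Levels of different genes were compared in TPM, in which counts are divided by exonic length and then scaled to a common total. Fabp7 had the highest level of the members, at 1201 ± 123 TPM in KO and 673 ± 88.7 TPM in WT, followed by Vim (759 ± 76.6 TPM in KO and 490.2 ± 20.01 TPM in WT) and Nes (391 ± 12.4 TPM in KO and 263 ± 20 TPM in WT; SD, n = 3 each). These 3 did not overlap with each other or with the next member in either group. A middle set followed. In KO it ran from Ednrb (129.6 ± 8.41 TPM) over Nr2e1 (126.5 ± 9.61 TPM) and Ptprz1 (114 ± 8.97 TPM) to Ttyh1 (110.4 ± 0.831 TPM), and neighbours in this order overlapped. In WT it ran from Ptprz1 (117 ± 2.81 TPM) over Nr2e1 (112.5 ± 8.14 TPM) and Ednrb (93.0 ± 4.84 TPM) to Ttyh1 (87.65 ± 2.61 TPM). There Ptprz1 and Nr2e1 overlapped, as did Ednrb and Ttyh1, while Nr2e1 and Ednrb were apart. Prom1 (36.6 ± 2.185 TPM in KO and 36.3 ± 3.22 TPM in WT), Slc1a3 (17.6 ± 3.05 TPM in KO and 29.4 ± 1.70 TPM in WT) and Pax6 (5.63 ± 1.49 TPM in KO and 3.81 ± 0.4755 TPM in WT) were the lowest in both groups. By mean TPM, 53.9% of all tested genes stood below Slc1a3 in KO and 63.8% in WT. Summed over the 10 members the level was 2735, 2894 and 3045 TPM in KO 1 to 3, against 1858, 1918 and 1941 TPM in WT 1 to 3. The sum was mostly that of Fabp7, Vim and Nes. The mean TPM of Slc1a3 was lower in KO, and so was that of Ptprz1, whose libraries overlapped between the groups. In CPM the Ptprz1 mean was instead slightly higher in KO (443 against 425 CPM in WT), and Ptprz1 was not called.

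The profile over libraries was also set beside that of every protein-coding gene with a mean of at least 10 CPM (9906 genes), as the root mean square difference of centred log2 CPM over the 6 libraries. The genes most like Nes were Yap1 (0.0277), Stk39 (0.0372), Dio3 (0.0515), Glipr2 (0.053) and Sox9 (0.0649). Those most like Slc1a3 were Foxo3 (0.0349), Myo16 (0.0411), Kcnc1 (0.0419), Adcy3 (0.048) and Adgrb2 (0.0488). Part of each likeness is the shared difference between the groups.

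A longer list held other genes that mark radial glia or their ventricular zone. Of 35 tested, 18 were higher, 3 were lower and 14 did not pass, with a median log2 fold change of 0.23. Sox9, a transcription factor gene of neural stem cells, was 1.55-fold higher, and Otx2, a homeobox gene of the anterior brain, was 2.62-fold higher (edgeR adjusted p = 0.00021 and 0.000111). Mfge8, which encodes a secreted glycoprotein, was 3.12-fold lower (edgeR adjusted p = 1.64e-05). Without KO 1 there were 23 higher and 4 lower, and without WT 2 or WT 3 there were 11 higher and 3 lower.

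Another list held genes of late progenitors and astrocytes, a state in which Slc1a3 is also expressed. Of 22 tested genes on this list, 12 were lower, 1 was higher and 9 did not pass, with a median log2 fold change of -0.72. The part of developmental age in these values was not tested. Clu, the clusterin gene, was 3.18-fold lower, Hepacam, a glial adhesion gene, 7.30-fold lower and Ndrg2, an astrocyte gene, 2.18-fold lower (edgeR adjusted p = 6.46e-05, 7.74e-05 and 0.000126). Aldh1l1, an astrocyte enzyme gene, had 6.725, 3.49 and 4.26 CPM in KO 1 to 3, against 21.8, 24.5 and 23.9 CPM in WT 1 to 3. The groups did not overlap, and the gene was 4.83-fold lower (edgeR adjusted p = 0.000326). Fgfr3, a fibroblast growth factor receptor gene, was the 1 gene that was higher, by 1.56-fold (edgeR adjusted p = 0.000347). Every KO library was above every WT library for Fgfr3. Without KO 1 there were 12 lower and 3 higher among 21 tested.

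**Figure D4:**
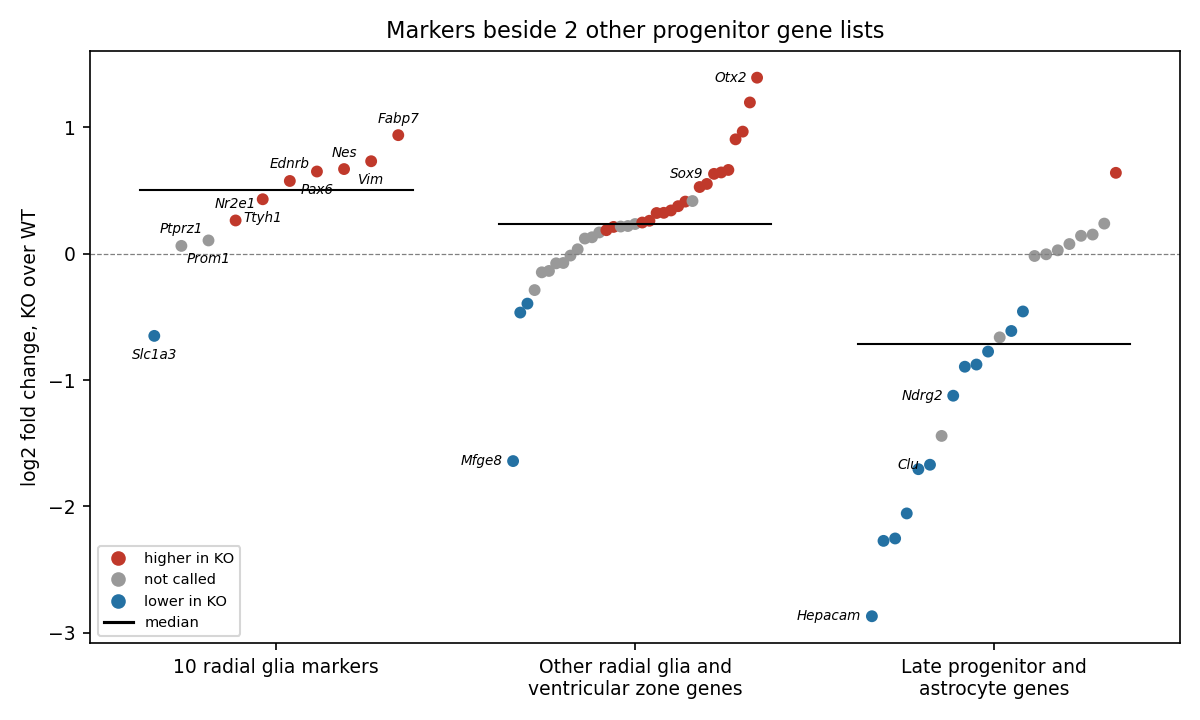
Log2 fold change, KO over WT (vertical axis), of the 10 markers, of 35 other radial glia and ventricular zone genes and of 22 late progenitor and astrocyte genes; points are genes sorted within a list, colour gives the edgeR call and the black line is the list's median. The medians are 0.50, 0.23 and -0.72, and Slc1a3 lies below 0 among the markers.

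Markers of other cells were read beside these results, since several members are made elsewhere too. Nes and Vim are also expressed in vessels. Of 12 endothelial markers 3 were lower and 9 did not pass (summed level 271 to 314.5 CPM in KO and 323 to 328 CPM in WT). Of 12 pericyte and mural markers 8 were lower and 4 did not pass (199.6 to 266 CPM in KO and 246 to 258 CPM in WT, with the highest KO value in KO 1). The largest part of this sum was Notch3, which did not pass (edgeR adjusted p = 0.0847). It had 140.7, 109.2 and 109.8 CPM in KO 1 to 3, against 106, 99.7 and 94.8 CPM in WT 1 to 3. Unlike the 8 lower markers, Notch3 had every KO library above every WT library. Of 10 meningeal fibroblast markers 6 were tested and did not pass (19.8 to 20.7 CPM in KO and 19.8 to 20.1 CPM in WT), with Dcn, Lum, Cyp1b1 and Slc6a13 under the filter. Of 8 choroid plexus markers 5 were tested and did not pass (2.80 to 3.68 CPM in KO and 2.775 to 3.26 CPM in WT), and Ttr was under the filter. Of 10 microglia markers 3 were lower and 7 did not pass (48.59 to 55.95 CPM in KO and 65.0 to 68.0 CPM in WT). No marker of these lists was at 0 in all libraries. The share called was 25.0% of endothelial, 66.7% of pericyte and mural and 30.0% of microglia markers, against 20.2% of all tested genes. Those called were all lower, and 10.5% of all tested genes were called lower.

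Neuronal, regional and blood markers are given by their counts, which stand against the 20.2% of all tested genes that were called. Of 16 postmitotic neuron markers 5 were lower and 11 did not pass, with a summed level of 6622 to 6934 CPM in KO and 7473 to 7669 CPM in WT. Of 9 tested oligodendrocyte precursor markers 1 was higher and 2 were lower (261 to 293 CPM in KO and 242.5 to 255 CPM in WT). The largest part of this sum was Olig2, the gene that was higher. It had 137, 169 and 175 CPM in KO 1 to 3, against 121, 114 and 113 CPM in WT 1 to 3. The genes that were lower were Cspg4 and Olig1. Of 14 MGE markers 5 were higher, 4 were lower and 5, with Nkx2-1 among them, did not pass. Their summed level was 4199 to 4845 CPM in KO and 4578 to 4912 CPM in WT. Maf was 2.61-fold lower, while Gbx2 was 2.115-fold and Shh 2.615-fold higher (edgeR adjusted p = 4.04e-05, 0.000399 and 0.000683). Of 16 markers of the lateral eminence and striatum 11 were lower and 2 higher (548.5 to 678 CPM in KO and 759 to 978 CPM in WT). Of 14 cortical markers 7 were higher and 1 was lower, and the summed level of 429 to 507 CPM in KO and 592 to 644 CPM in WT was mostly that of Bcl11b, the gene that fell. Lhx9, the cortical marker with the smallest unadjusted p, was 3.20-fold higher (edgeR adjusted p = 4.75e-05). It had 20.4, 17.3 and 18.8 CPM in KO 1 to 3, against 5.18, 6.75 and 5.82 CPM in WT 1 to 3. Neurog2, a proneural gene of cortical progenitors that Pax6 activates, did not pass (edgeR adjusted p = 0.111). It had 8.91, 6.48 and 24.9 CPM in KO 1 to 3, against 0.52, 4.06 and 1.96 CPM in WT 1 to 3. The part that neighbouring tissue and cell makeup have in the members' values was not tested.

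Of 12 red blood cell markers 6 were higher, 2 were lower and 4 did not pass (1010 to 1611 CPM in KO and 663 to 724 CPM in WT), and the globin genes among them split by stage. Red cells make embryonic globins first and adult globins later in development. The embryonic globin gene Hbb-y had 572, 930.5 and 935 CPM in KO 1 to 3, against 129.7, 110.2 and 158 CPM in WT 1 to 3. The groups did not overlap, and KO 1 was nearest to the WT range. Hbb-y was 6.12-fold higher, Hba-x 7.76-fold and Hbb-bh1 25.5-fold (edgeR adjusted p = 0.000736, 0.000663 and 0.00417). Of the adult globin genes, Hbb-bs was 2.91-fold lower and Hbb-bt 1.83-fold lower (edgeR adjusted p = 0.000111 and 4.04e-05), while Hba-a1 and Hba-a2 did not pass (edgeR adjusted p = 0.328 and 0.935). Hbb-bs and Hbb-bt, like Hba-a1 and Hba-a2, are near-identical copies between which counting can split reads. Within KO, Hbb-bs had 62.0, 65.9 and 88.3 CPM in KO 1 to 3, and Hbb-bt had 39.0, 41.9 and 43.2 CPM. Both were nearest to the WT range in KO 3, unlike Hbb-y. Both groups are labelled with the same embryonic day, and the part of developmental age in the members' values was not tested.

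**Figure D5:**
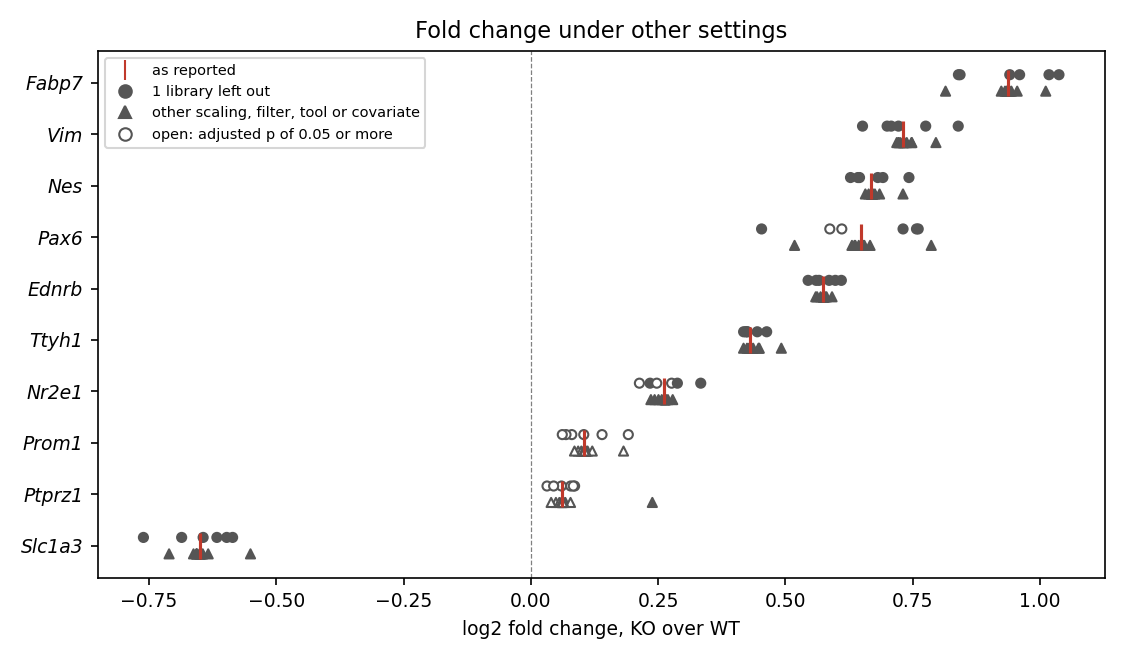
Log2 fold change, KO over WT (horizontal axis), of each marker as reported and under 18 other settings; filled symbols have an edgeR, DESeq2 or limma adjusted p under 0.05. Direction was the same throughout for all 10 members, and open symbols mark settings in which Pax6 or Nr2e1 lost its call and nearly every setting for Prom1 and Ptprz1. Ptprz1 has 1 filled symbol, that of the length correction.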

How the data were processed

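RNA-seq read counts per gene were analysed for 6 libraries of dissected medial ganglionic eminence. Raw counts for each Ensembl gene ID are what the authors deposited. The submitters' processing notes name GRCm38 and the tools Trimmomatic 0.36, STAR 2.5.2b, Subread 1.5.2, featureCounts and DESeq2. Strand setting and annotation release are not stated there. A deposited normalized table was not used, because 2 of its columns share a name.

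The labels gave group and replicate number, and each library is a separate pool. GENCODE M21 (GRCm38) supplied symbols, positions and exon lengths. After filterByExpr (at least 10 counts, total 15) and TMM scaling, all genes were tested together with robust quasi-likelihood F-tests (edgeR 4.0.16, R 4.3.3), and p-values were adjusted by Benjamini-Hochberg at 0.05. The method was first checked on simulated counts. Standard errors were derived as the absolute log2 fold change divided by √F. CPM used TMM-scaled library sizes, and TPM used the union of exons. The alternatives were DESeq2 1.42.0, limma voom (limma 3.58.1), other scalings, filters and thresholds, no robust spread, a Y-linked covariate, a replicate block, protein-coding genes only, a length correction and leaving out each library.

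The members and the gene lists were chosen with earlier results of these data known. All members are named, and from each list of related or progenitor genes up to 3 genes with the smallest unadjusted p. The same rule covered the lists of other cell types, but most of their genes are given here only as counts and summed levels. Also named are the 5 genes most like Nes and the 5 most like Slc1a3. Aldh1l1, Slc1a2, Neurog2, Nkx2-1, Glul, Fgfr3 and Notch3 were named after their values were seen. So were the globin genes other than Hbb-bs and Hbb-bt, and the filtered-out genes.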

Additional observations from a re-analysis of the deposited data

How the results depend on the processing

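Each of the 10 members was set against 20 alternatives. Of these 200 values, 192 stayed on their side of the threshold with their sign, 7 lost significance (Pax6 and Nr2e1), 1 gained it (Ptprz1, length trend removed) and 0 reversed. The called members were 7 higher and 1 lower except under the length correction (8 higher), a threshold of 0.01 (5 higher) and single-library omissions (5 to 7 higher). Over all genes, omitting a single library left between 464 and 3752 genes higher and between 727 and 3804 lower, highest without KO 1. The replicate block gave 862 higher and 1219 lower genes and changed no member's call, although Pax6 came close to the threshold (0.64, edgeR adjusted p = 0.0495). The labels do not say whether the numbers pair the libraries. Deviations from the group mean correlated at -0.076 for number 1, -0.123 for number 2 and 0.026 for number 3. This cannot decide it, since pairing with little shared variation would give low values too. The Y-linked covariate gave 2974 higher and 3285 lower. A threshold of 0.01 gave 360 higher and 583 lower, and 0.1 gave 2732 higher, by construction. Omitting a library, a choice made after seeing the data for these lists, gave 11 to 23 higher among other radial glia genes and 1 to 3 higher among late progenitor genes. The cause of these movements was not tested. With 3 pools a group, p-values measure the spread between these pools.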

Other observations

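Within the KO group the members did not share an order of libraries. KO 1 had the lowest value of the 3 for 4 members (Nes, Vim, Fabp7 and Ttyh1) and the highest for 4 others (Slc1a3, Ptprz1, Pax6 and Nr2e1). For Nes, Vim, Fabp7, Ttyh1 and Slc1a3 this placed KO 1 nearest to the WT range, and for Pax6 and Nr2e1 farthest from it. The median coefficient of variation of the 10 members was 3.95% in KO and 6.49% in WT, against 6.65% in KO and 3.85% in WT over the 10141 tested genes with a mean of at least 10 CPM.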
